A study of Homo sapiens with 23 samples.

Results

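The HSP90 chaperone system, the chaperonin pair, the small heat shock protein HSPB1, the co-chaperone BAG3 and the heat shock factors HSF1 and HSF2 were followed in human HEK293T cells that had met particles of polyethylenimine and plasmid DNA. The members are 10 genes, HSP90AA1, HSP90AB1, AHSA1, HSPB1, HSPD1, HSPE1, STIP1, BAG3, HSF1 and HSF2, and every probe set carrying one of these symbols was taken, which gave 22 of 54675 probe sets, and 10 of 20033 named genes, on each of 23 arrays. HSP90AA1 had 4 of them, HSP90AB1 3, HSPD1 5, STIP1, HSF1 and HSF2 2 each, and AHSA1, HSPB1, HSPE1 and BAG3 1 each, so that probe sets of one gene report on one transcript pool and are not replicates. No filter on low values was applied, and all 22 entered every test.

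HEK293T is a line of embryonic kidney origin that carries the SV40 large T antigen and takes up plasmid readily. Cells received polyplexes, which are particles of a cationic polymer and DNA, 18 h after seeding. The polymer was branched polyethylenimine, stated as 25 kDa for the 2, 8 and 16 h arrays and with no size for the 24 h arrays, and the plasmid was pEGFP-LUC, which encodes green fluorescent protein (GFP) and luciferase. Untreated cells (2 arrays) and treated cells (3 arrays) were compared at 2 h without sorting. At 8, 16 and 24 h treated cultures were sorted by flow cytometry into GFP-positive (transfected) and GFP-negative (untransfected) cells, with 3 arrays per population and time. Both sorted populations had therefore met polyplexes and passed the sorter, and no cells without polyplexes were analysed here at these times. Replicates are called biological in the labels, but no label states the day or culture of an array, and p-values therefore cover only the spread seen among the arrays.

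HSP90 proteins fold and stabilise signalling proteins, with AHSA1 speeding their ATP cycle and STIP1 handing clients over from HSP70. HSPD1 and HSPE1 form the folding chamber of the mitochondrial matrix, HSPB1 binds unfolding proteins without ATP, and BAG3 links HSP70 and small HSPs to selective autophagy. HSF1 is held inactive in unstressed cells and, once released by unfolded protein, binds repeats of the letters nGAAn upstream of these genes. HSF2 binds the same repeats and can pair with HSF1.

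Promoter sites that carry such repeats are shown here because they are the letters HSF1 and HSF2 bind and were not used to choose the members. In 300-base windows around RefSeq gene starts (250 bases before to 50 after, assembly GRCh38.p14), 9 of 10 members (all but HSF1) had a sequence, in 16 windows. Both strands were searched for 2 facing units (GAANNTTC or TTCNNGAA) and for 3 alternating units (GAANNTTCNNGAA or TTCNNGAANNTTC, which contain the shorter form). The shorter form was found in 5 of the 16 windows, from 5 genes, and in 13.5% of all 35116 windows. The longer form was found in 3 of the 16 windows and in 0.490% of all windows. The 30 bases around each match follow 5′ to 3′ on the strand of the gene, with the repeat in capitals.
HSP90AA1, chr14:102087112-102087141, minus strand: ggagggttcTTCCGGAAGGTTCgggaggct
HSP90AA1, chr14:102087094-102087123, minus strand: gttcgggaggcTTCTGGAAaaagcgccgcg
HSP90AB1, chr6:44247769-44247798, plus strand: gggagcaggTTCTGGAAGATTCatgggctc
HSP90AB1, chr6:44247822-44247851, plus strand: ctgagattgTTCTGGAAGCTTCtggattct
HSPD1, chr2:197500061-197500090, minus strand: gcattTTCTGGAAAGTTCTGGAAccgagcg
HSPB1, chr7:76302480-76302509, plus strand: ccttaacgagaGAAGGTTCcagatgagggc
STIP1, chr11:64186173-64186202, plus strand: cttctagtaggTTCCAGAAggcggcgcgtg

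HSP90AA1, HSP90AB1 and HSPD1 thus held the longer form and HSPB1 and STIP1 the shorter one, each in a single window. All of these except HSPB1 also had windows at other annotated starts, without a match. The STIP1 match begins at base 14 after its start and so is not upstream of it. Neither form was in the window of BAG3, the member whose transcript rose below. Its 250 bases upstream of the start, chr10:119651130-119651379 on the plus strand, are given for comparison with the sites of the other members. A match describes letters in these windows and does not show binding. The shorter form is in only 13.5% of all windows, and imperfect repeats or bases outside the windows were not searched. A window without a match, as for BAG3, therefore does not show that the gene lacks such repeats.
BAG3 upstream: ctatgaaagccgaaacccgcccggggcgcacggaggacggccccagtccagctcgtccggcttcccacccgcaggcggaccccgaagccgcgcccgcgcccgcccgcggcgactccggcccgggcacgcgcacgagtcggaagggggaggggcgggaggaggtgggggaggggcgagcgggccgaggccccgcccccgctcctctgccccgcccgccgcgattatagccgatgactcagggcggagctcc

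Values are log2 expression from RMA, a method that corrects, scales and summarises the probes of a probe set, and each time appears to have been normalized apart, with array medians of 4.66 to 4.71 at 8 h and 4.96 to 5.10 at 16 h. Levels are therefore compared within a time only. Of 10 markers fixed for the HEK293 line, VIM, LIN28B, CDH2 and NEFL read above 8.86 log2 units on all 23 arrays, whereas the haematopoietic marker PTPRC stayed under 3.79 and the stromal marker LUM at or under 3.02. The mean of the 10 line markers was lower in treated cells at 2 h (8.78 to 8.88 per array against 8.94 to 8.96) and in GFP-positive cells at 8 h (8.23 to 8.32 against 8.40 to 8.45), and overlapped at 16 h (8.87 to 8.96 against 8.92 to 9.07). The mean of the 8 haematopoietic markers was higher in treated cells at 2 h (4.37 to 4.40 against 4.25 to 4.34), although single haematopoietic and stromal markers had 0 of 16 calls at any time. RNA quality, read as the 3' minus 5' difference of the ACTB control probe sets, was 2.68 in treated 2 h replicate 1 against 1.23 to 1.44 in the other 2 h arrays, and highest in replicate 3 of both populations at 8 h (2.28 and 2.15) and at 16 h (1.80 and 1.67). For transfected 8 h replicate 3 the source name reads 16 h, against the title and description, which were followed. At 24 h the group means in the authors' deposited table could be recovered from the labelled arrays for 0 of 54675 probe sets, and the differences between the populations correlate across probe sets at -0.52 with those of the authors' deposited table, so 24 h directions from the arrays hold for the libraries as labelled only.

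Among the 22 probe sets, BAG3 rose in GFP-positive cells at 16 h and no other call was made at 2, 8, 16 or 24 h. A call is an adjusted p under 0.05 in limma, adjusted by the Benjamini-Hochberg method over all 54675 probe sets. At 2 h, treated against untreated, 0 of 22 were called, where 0.545% of all probe sets were, and 1 of 22 had an unadjusted p under 0.05, where 9.72% of all did. At 8 h, GFP-positive against GFP-negative, 0 of 22 were called beside 6.89% of all probe sets, and 4 had an unadjusted p under 0.05 beside 21.0%. At 16 h the 1 call (1 of 22) stands beside 4.44% of all probe sets called in either direction and 2.47% called higher, and 3 had an unadjusted p under 0.05 beside 17.9%. Members were thus called at shares near or below those of all probe sets. The median member difference was -0.02 at 2 h, 0.09 at 8 h and 0.10 at 16 h, against 0.01, 0.00 and -0.04 for all probe sets.

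Probe sets whose arrays did not overlap between the groups were counted as well. At 8 h 7 of 22 lay higher in all GFP-positive arrays, where 10.8% of all probe sets did, and 4 of these 7 are HSP90AA1 probe sets on one transcript pool. The other 3 were BAG3, HSPE1 and HSPD1 243372_at. One of 22, HSF1 202344_at, lay lower throughout, beside 12.7% of all. At 16 h 4 of 22 lay higher, beside 8.06%, and 0 lower, beside 13.1%; at 2 h 1 lay higher, beside 9.56%, and 3 lower, beside 10.3%. The 4 at 16 h were BAG3, HSF2 209657_s_at and 2 HSP90AA1 probe sets.

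**Figure D1:**
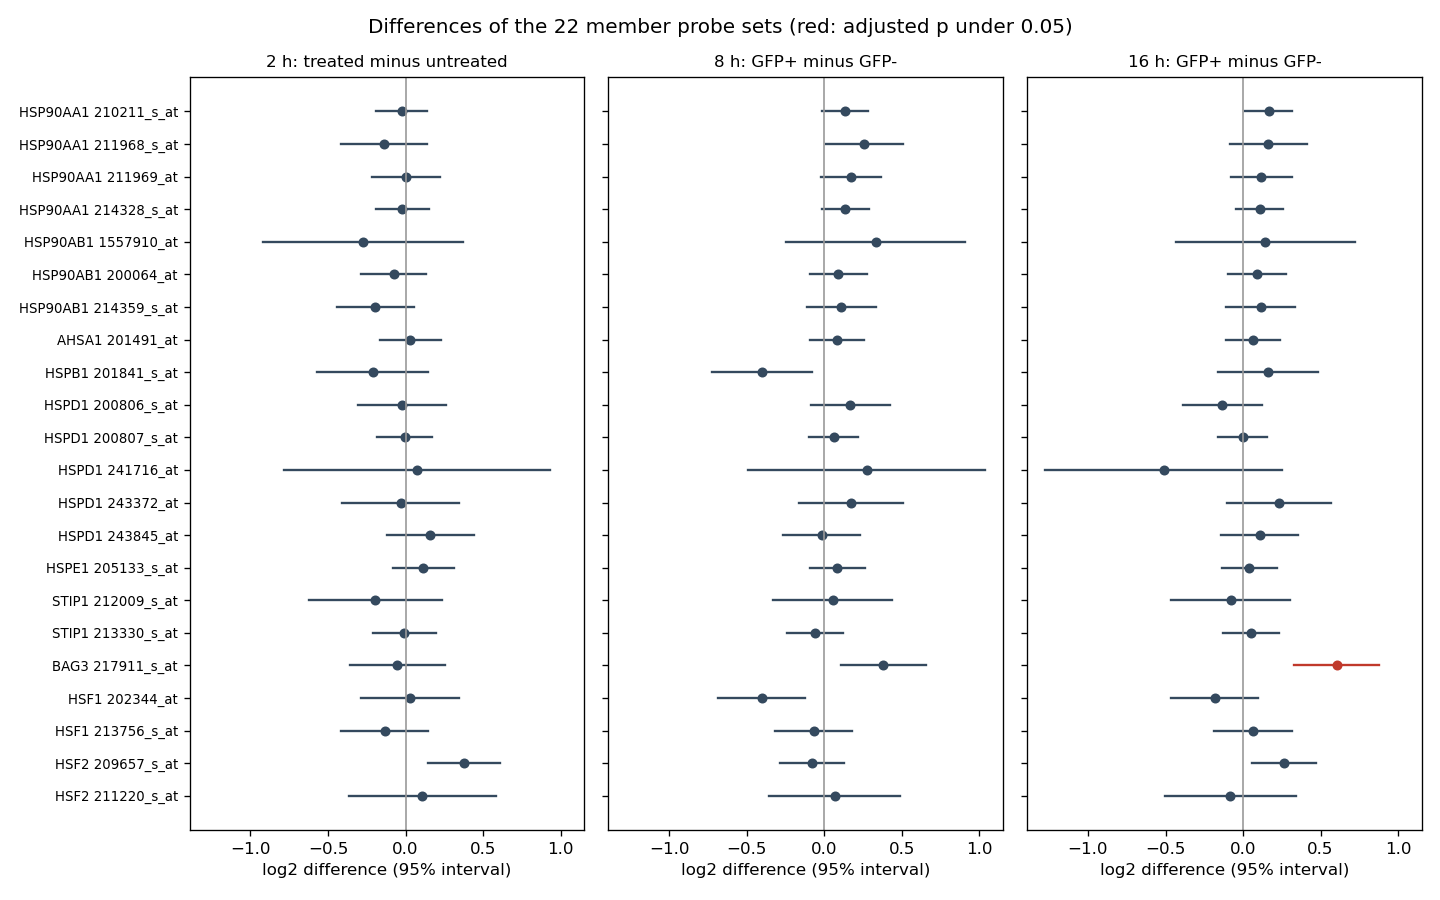
Log2 difference of each of the 22 probe sets (points) with its 95% interval (bars) from limma, treated less untreated cells at 2 h and GFP-positive less GFP-negative cells at 8 and 16 h. BAG3 at 16 h, in red at 0.60, is the call; most intervals cross 0.

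BAG3 (217911_s_at, chr10:119651380-119677819) was 1.52-fold higher in GFP-positive than in GFP-negative cells at 16 h. The 3 GFP-negative arrays read 9.74, 9.67 and 9.74 log2 units and the 3 GFP-positive arrays 9.99, 10.39 and 10.57. Every GFP-positive array lay above every GFP-negative one, and the spread was wider in GFP-positive cells (SD 0.30 against 0.04, n = 3 each). The difference was 0.60 (SE 0.13, 95% interval 0.33 to 0.88, adjusted p = 0.0140). Whether more of the cells or more RNA per cell carried it cannot be told apart in sorted bulk RNA. The call was lost when all 23 arrays shared 1 model (adjusted p = 0.263), when the 16 h arrays were fitted alone (0.0848), and without untransfected replicate 2 (0.0585), transfected replicate 2 (0.0547) or transfected replicate 3 (0.0699), with differences of 0.48 to 0.60. In the authors' deposited table the posterior probability of BAG3 at 16 h is 0.986.

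At 8 h BAG3 read 9.01, 9.21 and 9.08 log2 units in GFP-negative cells and 9.28, 9.75 and 9.40 in GFP-positive cells. The populations did not overlap, but the difference of 0.38 (SE 0.13, unadjusted p = 0.0095) did not pass over all probe sets (adjusted p = 0.0922), nor did it in the paired fit by replicate number (adjusted p = 0.0564). The difference at 16 h exceeded that at 8 h by 0.22 (SE 0.18, 95% interval -0.17 to 0.61, adjusted p = 0.753), so a rise between the times was not resolved. At 2 h untreated arrays read 9.53 and 9.64 and all 3 treated arrays 9.53, with a difference of -0.05 (SE 0.15, adjusted p = 1). Of the 5 arrays at 2 h, 4 carry the same BAG3 value in all deposited digits. Such ties are common at that time, where 7724 to 9412 probe sets tie between 2 arrays of a group.

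**Figure D2:**
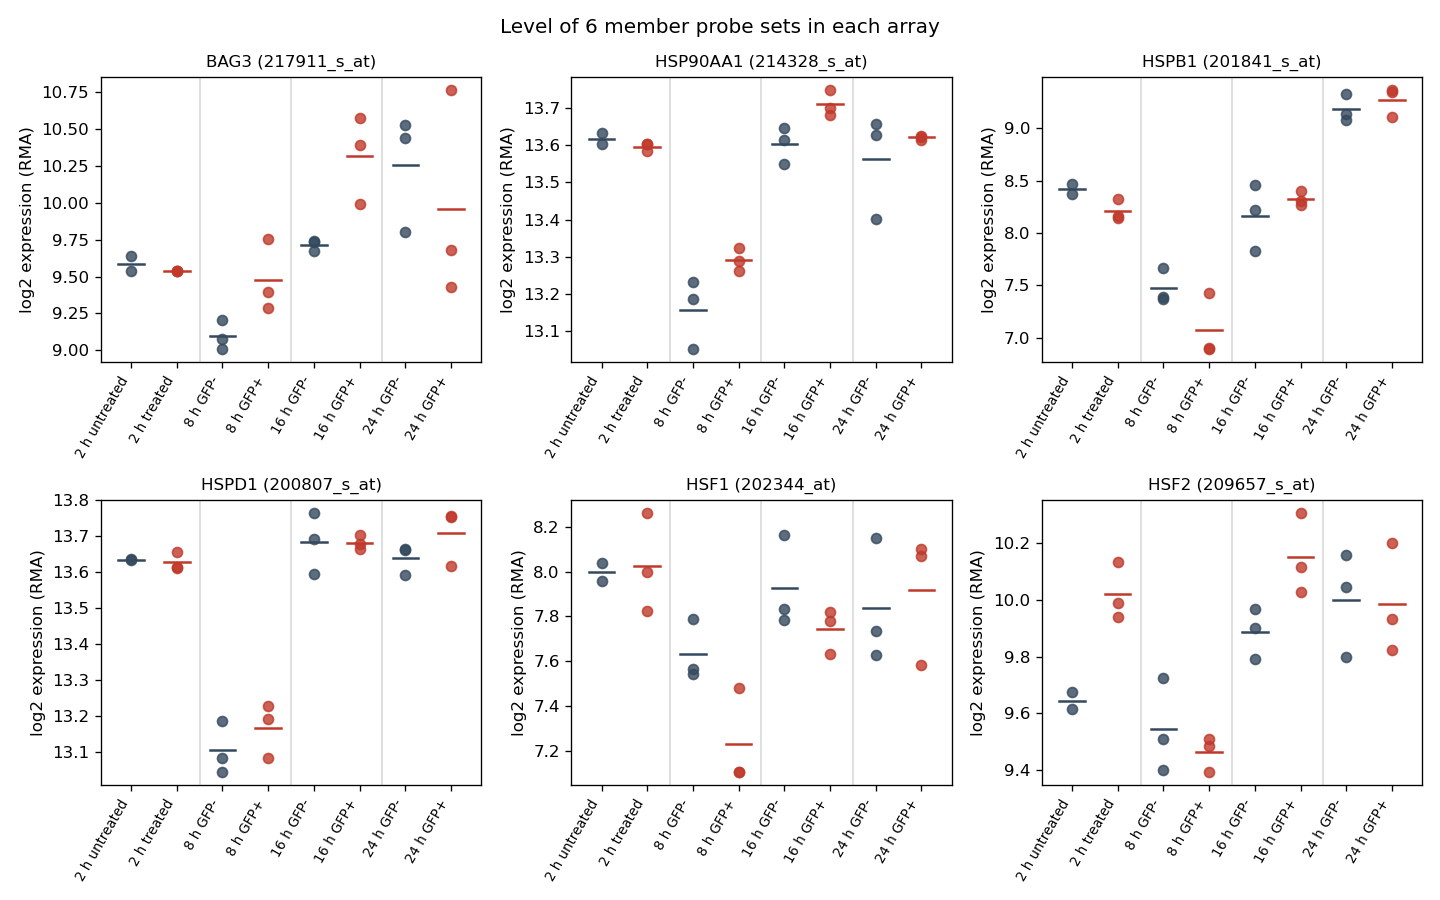
Log2 expression (y axes, one scale per panel) of 6 probe sets in each of the 23 arrays (points) with the mean of each group (lines), untreated or GFP-negative in dark blue and treated or GFP-positive in red; vertical lines part the times, which appear to have been normalized apart. BAG3 and HSP90AA1 214328_s_at lie higher in every GFP-positive array at 8 and 16 h, and HSF2 in every treated array at 2 h.

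HSP90AA1 (chr14:102080742-102139749), the stress-inducible cytosolic HSP90, leaned the same way on all 4 of its probe sets without a call. For 214328_s_at, the brightest, the 8 h GFP-negative arrays read 13.19, 13.05 and 13.23 log2 units and the GFP-positive arrays 13.29, 13.32 and 13.26. At 16 h the same probe set read 13.65, 13.61 and 13.55 against 13.75, 13.68 and 13.70. GFP-positive arrays lay above GFP-negative ones at both times. The 4 differences were 0.13 to 0.26 at 8 h (adjusted p 0.221 to 0.308) and 0.11 to 0.16 at 16 h (adjusted p 0.226 to 0.515). All 4 probe sets were without overlap at 8 h and 2 of 4 at 16 h. With trend and robust settings of limma, 210211_s_at passed at 16 h (adjusted p = 0.0415). At 2 h the 4 probe sets differed by -0.14 to 0.00, with treated arrays of 211968_s_at (13.01, 12.94 and 12.96) below the untreated ones (13.07 and 13.15).

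HSP90AB1 (chr6:44246194-44253883), the constitutive cytosolic form, differed by 0.09 to 0.33 at 8 h and by 0.09 to 0.14 at 16 h over its 3 probe sets, with adjusted p of at least 0.550. On 200064_at the GFP-negative arrays read 11.76, 11.92 and 11.91 at 8 h and the GFP-positive arrays 11.98, 12.05 and 11.83, so the populations overlapped. At 16 h they read 12.81, 12.74 and 12.59 against 12.79, 12.85 and 12.78 and overlapped again. The wide interval of 1557910_at at 16 h (-0.44 to 0.72) leaves larger differences unresolved there. That of 200064_at (-0.10 to 0.28) does not reach 1.5-fold, which holds for the signal of that probe set and not for the gene.

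AHSA1 (chr14:77457867-77469472), the activator of the HSP90 ATPase, differed by 0.08 at 8 h (95% interval -0.09 to 0.25) and 0.06 at 16 h (-0.11 to 0.24). Its 16 h arrays read 11.20, 11.28 and 11.30 in GFP-negative and 11.24, 11.38 and 11.34 in GFP-positive cells. STIP1 (chr11:64185272-64204543), the adaptor between HSP70 and HSP90, had differences of 0.05 and -0.06 on its probe sets at 8 h and of -0.08 and 0.05 at 16 h. On 213330_s_at its 16 h arrays read 11.16, 11.14 and 11.12 against 11.20, 11.22 and 11.14. Both genes overlapped between the populations at 8 and 16 h.

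HSPB1 (201841_s_at, chr7:76302673-76304292), the small HSP also known as HSP27, was the member furthest below 0 at 8 h together with HSF1. Its GFP-negative arrays read 7.39, 7.37 and 7.67 log2 units and its GFP-positive arrays 7.42, 6.91 and 6.89. GFP-positive replicate 1 lay within the GFP-negative values and the other two below them. The difference was -0.40 (SE 0.15, adjusted p = 0.128). Without that array it was -0.58 and passed (adjusted p = 0.0300). At 16 h the populations read 7.83, 8.22 and 8.46 against 8.27, 8.40 and 8.31 and overlapped, with a difference of 0.16 (SE 0.15, adjusted p = 0.646). The change between the times, 0.56 (SE 0.21, unadjusted p = 0.0183), did not pass over all probe sets (adjusted p = 0.490). At 2 h the treated arrays (8.32, 8.16 and 8.14) lay below the untreated ones (8.37 and 8.47), by 0.21 on average, which was not called (adjusted p = 0.814).

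The mitochondrial chaperonins showed no call at any time. HSPD1 (chr2:197486584-197500274) and HSPE1 (chr2:197500379-197503449) lie head to head, with 104 bases between their annotated starts. On HSPD1 200807_s_at the 8 h arrays read 13.08, 13.04 and 13.19 in GFP-negative and 13.08, 13.23 and 13.19 in GFP-positive cells, and the 16 h arrays 13.76, 13.69 and 13.60 against 13.66, 13.70 and 13.68. The populations overlapped at both times, and the differences were 0.06 (95% interval -0.10 to 0.22) and 0.00 (-0.16 to 0.16). HSPE1 read 11.75, 11.69 and 11.80 against 11.84, 11.83 and 11.83 at 8 h, without overlap, and the difference of 0.08 (SE 0.08) was not called (adjusted p = 0.637). At 16 h it was 0.04 (SE 0.08), with overlap.

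The other HSPD1 probe sets were not called either. The one with the largest difference at 16 h was 241716_at, which read 5.23, 4.44 and 4.06 in GFP-negative and 4.71, 3.85 and 3.62 in GFP-positive cells at 16 h, a difference of -0.51 (SE 0.36, adjusted p = 0.505). Its values fall near or below the array medians, and the 2 populations overlapped although each GFP-positive array was below the GFP-negative array of the same number. The other 3 probe sets differed by -0.13 to 0.23 at 16 h. Where each probe set lies in the transcript was not analysed here.

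HSF1 read lower in GFP-positive cells at 8 h on its brighter probe set, 202344_at, without passing. The GFP-negative arrays read 7.57, 7.79 and 7.54 log2 units and the GFP-positive arrays 7.48, 7.10 and 7.11, so that every GFP-positive array was lower. The difference was -0.40 (SE 0.13, unadjusted p = 0.0076, adjusted p = 0.0809), and without transfected replicate 1 it was -0.53 and passed (adjusted p = 0.0335). At 16 h the arrays read 7.78, 7.83 and 8.16 against 7.78, 7.63 and 7.82, with a difference of -0.18 (SE 0.13, adjusted p = 0.521). The second probe set, 213756_s_at, was at -0.07 at 8 h and 0.06 at 16 h (SE 0.12 each), and its arrays of 4.30 to 5.21 at these times sit near the array medians. At 2 h 202344_at differed by 0.03 (SE 0.15).

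HSF2 (chr6:122399551-122433119) had the largest member difference at 2 h. On 209657_s_at the untreated arrays read 9.67 and 9.62 log2 units and the treated arrays 10.13, 9.94 and 9.99. All treated arrays were higher, by 0.38 on average (SE 0.11, 95% interval 0.14 to 0.61, unadjusted p = 0.0033). Over all probe sets this did not pass (adjusted p = 0.163), and it passed only with array weights (adjusted p = 0.0400). The treated array with the highest value is also the one with the highest ACTB 3' minus 5' difference, and without it HSF2 differed by 0.32 (SE 0.12, adjusted p = 0.320). In sorted cells the same probe set differed by -0.08 at 8 h (9.51, 9.40 and 9.72 against 9.49, 9.39 and 9.51) and by 0.26 at 16 h (9.97, 9.79 and 9.90 against 10.03, 10.12 and 10.30). Only the 16 h populations lay apart (SE 0.10, adjusted p = 0.153). The change between 8 and 16 h, 0.35 (SE 0.14), was not called (adjusted p = 0.512). The other HSF2 probe set, 211220_s_at, differed by only 0.11 at 2 h (SE 0.22). It differed by 0.07 at 8 h and -0.08 at 16 h (SE 0.20 each), and its groups overlapped at all of these times.

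Between 8 and 16 h, 0 of 22 probe sets changed their difference by the limma test, beside 0.00183% of all probe sets (1 in all), and 2 of 22 had an unadjusted p under 0.05, HSPB1 and HSF2 209657_s_at, beside 8.88% of all. This comparison sets values of 2 separately normalized times against each other.

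At 24 h, for the libraries as labelled, 0 of 22 members and 0 of 54675 probe sets (0%) were called in limma, and 0 of 22 members had an unadjusted p under 0.05, where 1520 probe sets (2.78%) did. BAG3 read 10.44, 10.53 and 9.80 in the arrays labelled GFP-negative and 9.68, 9.43 and 10.76 in those labelled GFP-positive. Each label holds both high and low arrays, and the difference of -0.30 has an interval of -1.10 to 0.50. HSF1 202344_at read 7.63, 7.74 and 8.15 against 8.07, 8.10 and 7.58, and also overlapped. No member probe set lay apart between the labels, where 4.17% of all lay higher and 3.14% lower.

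The authors' deposited table gives another 24 h comparison, whose means are not those of the labelled arrays. In the authors' deposited table BAG3 is 0.92 log2 units higher in GFP-positive cells, with a posterior probability of 0.999. HSF1 202344_at is listed there at -0.52, with a posterior probability of 0.969. These are the 2 of 22 members above 0.95 in the authors' deposited table at 24 h, where 3.90% of all probe sets are. In the same deposited table the other 20 probe sets lie between -0.10 (HSPB1) and 0.34 (HSP90AB1 1557910_at), and no error is given for any value.

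Other genes of the heat shock pathway were read from fixed lists on the probe set with the highest mean per gene. Probe sets whose symbol cell lists several genes were left out of this choice. Of 20 other HSF1 targets, 19 were measured. At 8 h 4 of 19 rose and 0 fell, with a median difference of 0.21 over the list. At 16 h 7 of 19 rose and 0 fell, with a median of 0.15, whereas all 20031 genes had medians of -0.01 and -0.03. Over all genes 9.38% were called at 8 h and 5.10% at 16 h. At 2 h 0 of 19 were called, as at 24 h, beside 0.579% and 0% of all genes. The list was chosen with earlier results of these data known, so its direction is not independent evidence.

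DNAJB1, an HSP40 partner of HSP70, rose from 8.84 ± 0.20 to 9.64 ± 0.24 log2 units at 8 h (SD, n = 3) and from 9.65 ± 0.04 to 10.51 ± 0.14 at 16 h, differences of 0.80 (SE 0.12, adjusted p = 0.0008) and 0.86 (SE 0.12, adjusted p = 0.0006). HSPA1A, inducible HSP70, rose by 0.89 at 16 h (SE 0.17, adjusted p = 0.0053). HSPA1A went from 5.43 ± 0.20, near the array medians of 4.96 to 5.10, to 6.32 ± 0.24. At 8 h its difference of 0.52 did not pass (adjusted p = 0.0694), but passed with the replicate block (adjusted p = 0.0201), with 1 probe set per gene (0.0444) and without untransfected replicate 1 (0.0385). HSPA1B, nearly identical in sequence, had no probe set of its own here, so the value cannot be given to one of the pair. HSPA6, an HSP70 made almost only under stress, rose by 1.14 at 16 h (SE 0.25, adjusted p = 0.0160). HSPH1, the HSP110 exchange factor, rose at both times, by 0.57 and 0.47. DNAJB4, another HSP40, rose by 0.56 and 0.51, and DNAJA1 at 8 h by 0.36. ZFAND2A, a zinc finger protein of the arsenite and heat response, rose by 0.61 at 16 h and DEDD2, a death effector domain protein, by 0.52.

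The larger of these target differences stood above those of the HSP90 and chaperonin members at the same times, although no test compares them. The brightest probe sets of those members lie at the 99.2 to 99.8 percentile of all probe sets, far above the levels of HSPA1A and DNAJB1. Whether so high a level limits the size of a difference was not tested. All 4 calls at 8 h and all 7 at 16 h were lost with all 23 arrays in 1 model (adjusted p 0.0712 to 0.194 and 0.121 to 0.315). With the arrays of each time fitted alone, DNAJA1 was lost at 8 h (0.0877), and DEDD2, DNAJB4, HSPA6 and ZFAND2A at 16 h (0.106 to 0.147). Leaving out 1 array in turn kept 2 to 4 of the 4 at 8 h, the fewest without transfected replicate 2. At 16 h it kept 2 of 7 without transfected replicate 3, 3 without untransfected replicate 2, 4 without untransfected replicate 3, 5 without untransfected replicate 1 or transfected replicate 2, and 7 without transfected replicate 1. DNAJB1 and HSPA1A kept their 16 h calls in each of these.

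**Figure D3:**
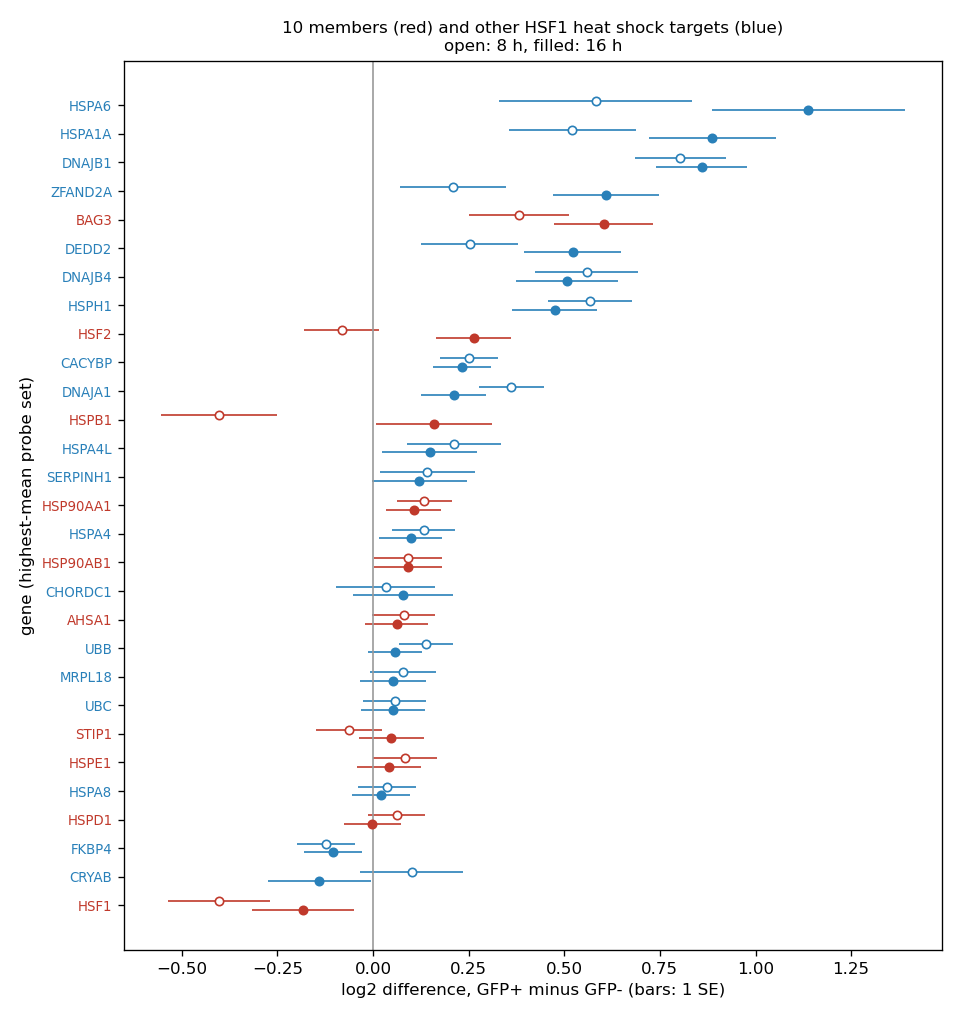
Log2 difference, GFP-positive minus GFP-negative, at 8 h (open) and 16 h (filled) for the 10 members (red) and 19 other HSF1 targets (blue), one probe set per gene, with 1 SE of the limma fit as bars; genes are in order of the 16 h value. HSPA6, HSPA1A and DNAJB1 stand at 0.86 or more at 16 h, BAG3 at 0.60, and the HSP90 and chaperonin members between 0.00 and 0.11.

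Of 19 co-chaperones and other HSP90 forms, 1 rose and 1 fell at 8 h, beside 9.38% of all genes called, and 0 were called at 16 h, beside 5.10%. SUGT1, an adaptor of HSP90 in kinetochore and innate immune complexes, rose by 0.36 (SE 0.09, adjusted p = 0.0220). TOMM70, the import receptor of the outer mitochondrial membrane that docks HSP90, differed by -0.34 (SE 0.08, adjusted p = 0.0187) and so fell. CACYBP, which binds the ubiquitin ligase SIAH1, was at 0.25 at 8 h (adjusted p = 0.0545) and 0.23 at 16 h (adjusted p = 0.0981), and passed under 3 alternatives at 8 h (0.0098 to 0.0392) and 2 at 16 h (0.0220 and 0.0454). FKBP4, an immunophilin, was at -0.12 and -0.10, and PPID, another immunophilin, at 0.26 and 0.24. PPP5C, the phosphatase bound to HSP90, was at -0.39 and -0.25, and STUB1, the ubiquitin ligase CHIP, at -0.17 and -0.13, none of these 4 called. Both calls at 8 h were lost with the 8 h arrays alone (adjusted p 0.0965 for SUGT1 and 0.0830 for TOMM70) and without transfected replicate 1 (0.0526 and 0.0635) or untransfected replicate 3 (0.0540 and 0.0569). Leaving out any other 8 h array lost 1 of them, and all 23 arrays in 1 model lost SUGT1 (0.160).

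Of 7 other BAG proteins and STIP1-like adaptors, 1 fell at 8 h, beside 9.38% of all genes called, and 0 were called at 16 h, beside 5.10%. BAG5, a BAG protein with several BAG domains, went from 9.15 ± 0.06 to 8.81 ± 0.01 log2 units at 8 h (SD, n = 3), a difference of -0.34 (SE 0.07, adjusted p = 0.0098), lost with the 8 h arrays alone (0.0756). BAG1 was at 0.12 and 0.31, BAG4 at -0.01 and 0.13, and ST13, the HSP70-interacting protein HIP, at 0.13 and 0.19, none called. BAG3 was thus the BAG gene with a higher call at 16 h, whereas the test of a difference between BAG genes was not made.

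No gene of the remaining lists was called at 2, 8, 16 or 24 h. These were 10 other small HSPs, with medians of 0.04 at 8 h and -0.07 at 16 h, where HSPB8, the BAG3 partner, was at -0.35 and -0.32 (adjusted p = 0.120 and 0.191) with levels of 3.62 to 4.35 log2 units, below the array medians. They also included 14 chaperonin TRiC and mitochondrial chaperone genes, with medians of 0.03 and 0.05. LONP1, the matrix protease, was at -0.31 and -0.20 and CCT4, a TRiC subunit, at 0.04 and 0.09. Of 9 other HSF genes and HSF regulators 8 were measured, with medians of -0.05 and 0.03, and SIRT1, a deacetylase of HSF1, stood at 0.08 and 0.16.

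Some line markers moved at the same times. NEFL, a neurofilament gene that HEK293 cells express, fell by 0.58 at 2 h, by 0.50 at 8 h and by 0.37 at 16 h, and ENO2, neuronal enolase, fell by 0.71 at 8 h and by 0.42 at 16 h. Of the 10 line markers, 1 was called lower at 2 h, 2 lower and 1 higher at 8 h, and 2 lower at 16 h, beside 0.579%, 9.38% and 5.10% of all genes in either direction. Their part in the differences of the heat shock genes was not tested.

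As a description over the 17 arrays at 2, 8 and 16 h, centred by time, the members did not follow one another closely. The points share arrays, normalization and the sort, and no p is given. Over 45 pairs the median correlation was 0.04. HSF1 and HSP90AA1 gave the lowest value, -0.71, and HSF1 and HSPB1 the highest, 0.61. HSPD1 and HSPE1 stood at 0.41, HSP90AA1 and HSP90AB1 at 0.46 and BAG3 and HSP90AA1 at 0.55. The genes most like BAG3 were ATF3 (0.96), TRIM66 (0.95) and FERMT3 (0.95). Among those most like HSF1 were PSENEN (0.96) and SLC39A13 (0.91), and most like HSPB1 were NDUFS8 (0.92), CDKN2A (0.89) and DNAJC4 (0.89). For HSP90AA1 they were SCFD1 (0.96), ZNF273 (0.95) and YME1L1 (0.93), and for HSF2 WDR20 (0.93), PPP1R12A (0.88) and GPATCH1 (0.88).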

How the data were processed

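Each array's deposited column holds RMA log2 expression, made with R 2.11.1 (2, 8 and 16 h) and R 2.9.0 with limma (24 h), per the submitters' processing notes. RNA was extracted with Trizol and a column, or with Trizol alone at 24 h, per the labels' protocols. The authors' deposited tables, one per time, hold group means, log2 fold changes, a posterior probability (a score from 0 to 1, model not given in the sources used here) and a fold column. That column is a ratio in the authors' 16 h table and the square of the log2 fold change in the others, and was not used. Genome build, depth and probe positions are not given; the number of arrays limits the precision.

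Differences come from limma 3.58.1 under R 4.3.3 (lmFit and eBayes, two-sided), run over all 54675 probe sets. The 17 arrays at 2, 8 and 16 h shared 1 model and the 6 arrays at 24 h were fitted alone, because their extraction and software differ and the authors' deposited 24 h means match the labelled arrays for 0 probe sets (tolerance 1e-06; all 54675 match at 2, 8 and 16 h). One model of all 23 arrays, in which the spread of the 24 h groups enters every test, was an alternative. Symbols came from the deposited tables, updated through the RefSeq gene table, and 41717 probe sets had one. Promoter windows, coordinates and neighbours come from RefSeq tables of GRCh38.p14. The fit was tested on simulated data.

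Same-numbered arrays correlated in their deviations from group means at 0.26, 0.24 and 0.32 at 8 h, so numbers pair the samples there by this check of the data. At 16 h the values were 0.32, 0.09 and 0.44, and those of differently numbered arrays -0.41 to 0.13. Same-numbered arrays thus leaned positive at 16 h too, but 0.09 lay below 0.13, so pairing there was not settled. At 2 h the same-numbered values were -0.11 and -0.05 and at 24 h -0.06 to -0.36, and these numbers were not taken as pairs. The main fit used no pairing at any time, 8 h included.

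The members and gene lists were chosen with earlier results of these data known. Named were all member probe sets, list genes called at 8 or 16 h, up to 4 more per list with the smallest p at 16 h (of these not all are printed), and the 3 genes most alike to a member. CHORDC1, FKBP4, CACYBP and CRYAB are on 2 lists each. NEFL and ENO2 are marker genes named after their values were seen. Some genes that this rule names are not reported here. The median of all probe sets differed between populations by at most 0.04 in size at each time.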

Additional observations from a re-analysis of the deposited data

How the results depend on the processing

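The 22 members were recomputed under 9 planned settings, each array left out in turn, and the mean of all probe sets of a gene, a setting chosen after seeing the data. Of the results for single member probe sets, 1641 stayed as in the main fit, called or uncalled. Another 5 gained a call and 5 lost it, the 5 losses all being BAG3 at 16 h. For named genes of other lists these counts were 954, 10 and 48. BAG3 at 16 h was the only member call in the main fit, so nearly all of the 1641 were uncalled in both fits. No called value changed sign. The count of called members at 16 h, 1, became 0 with all 23 arrays in 1 model and 0 with the 16 h arrays alone, and 2 with trend and robust settings (BAG3 and HSP90AA1). The replicate block at 16 h, where pairing by number was not settled, gave 2 (BAG3 and HSPD1 241716_at, adjusted p = 0.0051). It changed no other member call at 2, 8, 16 or 24 h, and among list genes HSPA1A gained a call at 8 h and DNAJB4 lost one at 16 h (adjusted p = 0.0525). At 2 h array weights gave 1 (HSF2) in place of 0. Leaving out 1 array gave 0 to 2 calls at 8 h, 0 to 1 at 16 h and 0 at 2 and 24 h. The change between 8 and 16 h stayed at 0 throughout. The cause of these shifts was not tested.

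Counts over all probe sets moved more. At 2 h 298 calls became 107 with all 23 arrays, 0 with the 2 h arrays alone, 1594 with array weights, and 27 to 297 with 1 array left out (27 without untreated replicate 2, 46 without treated replicate 3, 124 without treated replicate 2). At 8 h 3767 became 1166 with all 23 arrays, 1842 with the 8 h arrays alone and 5123 with the replicate block, and 2025 to 3308 with 1 array left out. At 16 h 2427 became 33, 684 and 3682 in the same order, and 1182 to 2402 with 1 array left out. With 1 probe set per gene 147, 2465 and 1263 of 20031 were called, and with the mean of all probe sets of a gene 89, 2016 and 1020 of 20033. Quantile normalization moved the split at 8 h from 1501 higher and 2266 lower to 1933 and 1899, and at 16 h from 1348 and 1079 to 1682 and 804; median centring gave 1816 and 624 at 16 h.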
